A study of Arabidopsis thaliana with 42 samples.

Results

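Messenger RNA was compared between mesophyll protoplasts that expressed NLP1 and mesophyll protoplasts that expressed NLP3, 2 transcription factors of the same plant family. The comparison used 4 of the 42 libraries of the study, the pair labelled NLP1 and the pair labelled NLP3, with no control library in the test. Both groups were wild-type Arabidopsis thaliana of the Col-0 ecotype, grown in soil for 3 to 4 weeks, and both carried a plasmid, so that they differed by the NLP expressed. Protoplasts are leaf cells freed of their walls, which take up plasmid DNA and express it for a short time. The other libraries held protoplasts with the other NLPs, control protoplasts, and seedlings of 3 genotypes treated with KCl or KNO3. The sources used here do not state the promoter of the plasmids, how long the protoplasts expressed them, or their nitrate supply. The labels do not say whether the libraries of a pair came from separate protoplast preparations, so the p-values measure the spread between these libraries, which may be technical.

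NLPs (NIN-like proteins) are transcription factors of the nitrate response. They bind the nitrate-responsive element (NRE) of promoters and raise genes of nitrate uptake, nitrate and nitrite reduction, ammonium assimilation and the supply of reductant for these steps. Nitrate reductase turns nitrate into nitrite, nitrite reductase turns nitrite into ammonium with electrons from ferredoxin, and glutamine synthetase builds the ammonium into glutamine. The oxidative pentose phosphate pathway provides the NADPH that reduces ferredoxin in plastids that are not photosynthetic.

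The 250 bases before the annotated gene start are shown for 4 genes that the comparison turned on, as read from the RefSeq assembly TAIR10.1. UPM1 (chr5:16365650-16365899, + strand) and AT5G41670 (chr5:16667391-16667640, - strand) are shown because their transcripts were higher with NLP1 at high expression, AT1G68238 (chr1:25574131-25574380, + strand) because it had the highest fold change by the naming rule, and CYP707A2 (chr2:12499724-12499973, - strand) because it had the lowest. Capitals mark a match to the core of the NRE, CTTNNNNNNNNNNAAG.
UPM1: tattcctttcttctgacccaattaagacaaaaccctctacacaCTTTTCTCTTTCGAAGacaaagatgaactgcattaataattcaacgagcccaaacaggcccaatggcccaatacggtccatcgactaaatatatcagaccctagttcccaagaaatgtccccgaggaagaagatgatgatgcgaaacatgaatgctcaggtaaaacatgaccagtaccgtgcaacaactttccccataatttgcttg
AT5G41670: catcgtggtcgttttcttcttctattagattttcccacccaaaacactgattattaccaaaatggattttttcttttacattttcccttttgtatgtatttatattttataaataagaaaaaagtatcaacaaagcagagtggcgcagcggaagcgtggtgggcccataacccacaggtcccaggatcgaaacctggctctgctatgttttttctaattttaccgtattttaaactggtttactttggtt
AT1G68238: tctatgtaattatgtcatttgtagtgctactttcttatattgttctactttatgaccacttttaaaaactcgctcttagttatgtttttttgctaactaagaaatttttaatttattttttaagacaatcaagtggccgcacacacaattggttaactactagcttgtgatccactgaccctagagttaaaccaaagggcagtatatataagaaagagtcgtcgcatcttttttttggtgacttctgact
CYP707A2: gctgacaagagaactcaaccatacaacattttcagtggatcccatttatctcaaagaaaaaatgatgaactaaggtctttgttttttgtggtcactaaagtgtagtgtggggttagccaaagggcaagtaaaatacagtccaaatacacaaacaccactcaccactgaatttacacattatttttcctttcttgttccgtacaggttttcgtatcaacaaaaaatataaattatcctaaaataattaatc
UPM1 held 1 match, whose first base lay at position -207 relative to the gene start, and the other 3 held none. The stretch before AT5G41670 also holds the annotated tRNA-Met gene AT5G41675.

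The plasmid transcript of each NLP is counted on the gene's own locus and was read first, as a check of the labels. NLP1 (AT2G17150, chromosome 2, 7466687 to 7471586, - strand) stood at 9291.51 and 8600.58 CPM (read counts per M of a library's gene counts, M standing for megacounts) in the NLP1 libraries, and at 13.59 and 12.85 CPM in the NLP3 libraries. NLP3 (AT4G38340, chromosome 4, 17954710 to 17958063, + strand) stood at 96942.65 and 121199.78 CPM in the NLP3 libraries, and at 21.76 and 26.89 CPM in the NLP1 libraries. The labelled NLP was thus the highest of the 9 in each of the 4 libraries, and NLP3 transcript alone made up 9.694 and 12.12% of the gene counts of its libraries. Per kb of coding length (2730 bases for NLP1, 2304 for NLP3), the level of NLP3 in its libraries was 14.4 times that of NLP1 in its libraries, and the ratio of single libraries ran from 12.4 to 16.7. The identity of the NLP and the amount of its transcript therefore cannot be told apart in this comparison, and protein levels were not measured. NLP9 stood at 48.46 and 17.96 CPM in the NLP1 libraries against 3.55 and 3.31 CPM in the NLP3 libraries, and endogenous and plasmid transcript cannot be separated there. The 9 NLP loci were left out of every test and of the library sizes. Of the 8 loci within 2 places of NLP1 and NLP3 on the chromosome, 5 were tested and none was called, with log2 differences between -0.31 and 0.10; they include AT2G17140, which overlaps NLP1.

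**Figure D1:**
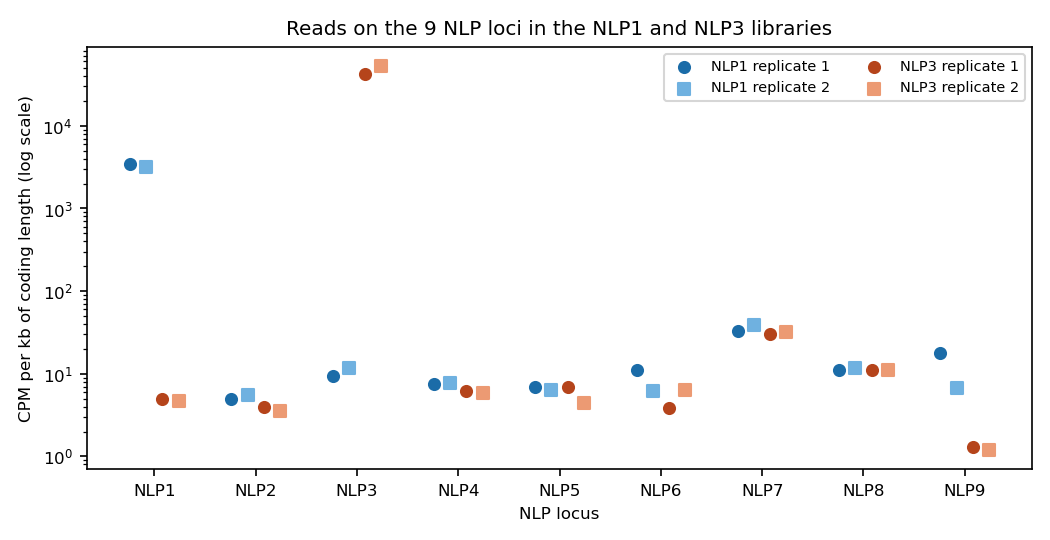
Reads on the 9 NLP loci in the 4 libraries, as CPM per kb of coding length on a log axis, with 1 point per library. NLP1 in its libraries (3403.5 and 3150.4) and NLP3 in its libraries (42075.8 and 52604.1) stand above all other points.

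The 4 libraries held 11.9 to 20.6 M gene counts and 21708 to 22505 detected loci, and a count of 0 in a library allows a level of up to 0.147 to 0.254 CPM (3 counts, counting error alone). NLP1 replicate 1 stood apart from the other 3 libraries: its alignments that were not unique came to 76.73% of the gene counts (23.26 to 26.1% in the others), its reads on no gene to 8.68% (2.27 to 3.08%) and its organelle loci to 0.84% (0.24 to 0.37%). Results that change without it are given so. All 12 mesophyll marker genes (chlorophyll-binding proteins, Rubisco small subunits and others) were tested and none passed the test described below, which 2.86% of all 17121 loci tested did; their log2 differences ran from -0.13 to -0.01. Their summed level was 4060 and 3980 CPM with NLP1 and 4160 and 4340 CPM with NLP3. Of the 29 markers of guard cells, epidermis, vasculature and root, 10 were tested and none was called. The guard cell markers MUTE and EPF1 and the root markers CASP1, COBL9 and EXP7 had 0 counts in all 4 libraries. The 6 vascular markers tested of 7 summed to 13.6 and 7.62 CPM with NLP1 and to 5.46 and 4.66 CPM with NLP3, all 6 with a positive difference (0.65 to 1.97), and their part in the results was not tested. The largest was that of XCP1, a xylem protease, at 3.40 and 1.86 CPM against 0.889 and 0.37 CPM (adjusted p = 0.061), which was called in 6 alternatives.

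The test called few genes, and with 2 libraries a group a gene that was not called may still differ. Of 17121 loci tested, 490 (2.86%) passed an adjusted p of 0.05, with 321 higher with NLP1 (1.87%) and 169 higher with NLP3 (0.987%). The median log2 fold change of the called genes, given throughout as NLP1 over NLP3, was 0.57 on the NLP1 side and -0.53 on the NLP3 side, and 47 and 31 genes differed at least 2-fold. Over all loci tested the median was 0.001, the median size was 0.15, and 2822 had an unadjusted p under 0.05. For comparison, the median log2 difference between the 2 libraries of a pair was 0.14 for NLP1 and 0.13 for NLP3, while libraries of different groups differed by 0.16 to 0.19. The libraries of the groups did not overlap at 8231 loci (48.1%), so that a lack of overlap alone says little here.

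The number of calls depends on the libraries that give the spread. A fit that leaves out 1 of the 4 libraries sets a single library against a pair. Its spread comes from that pair alone, so its calls are no check of replication. In a fit over all 24 protoplast libraries as labelled, 4 of which hold another NLP than their label names, no gene was called and 1438 had an unadjusted p under 0.05. In a fit over the groups that match their labels, with the controls, 664 genes were called and 458 of the 490 were among them. Without each of the 4 libraries in turn, 248 of the 490 were called every time, 159 of them higher with NLP1 and 89 higher with NLP3. Leaving out NLP1 replicate 1 gave 428 genes higher with NLP1 and 257 higher with NLP3, and leaving out NLP1 replicate 2 gave 792 and 506. The called genes named below therefore have no call in the fit over 24 libraries. Each of the 490 kept its direction there, but the same 4 libraries set that direction.

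**Figure D2:**
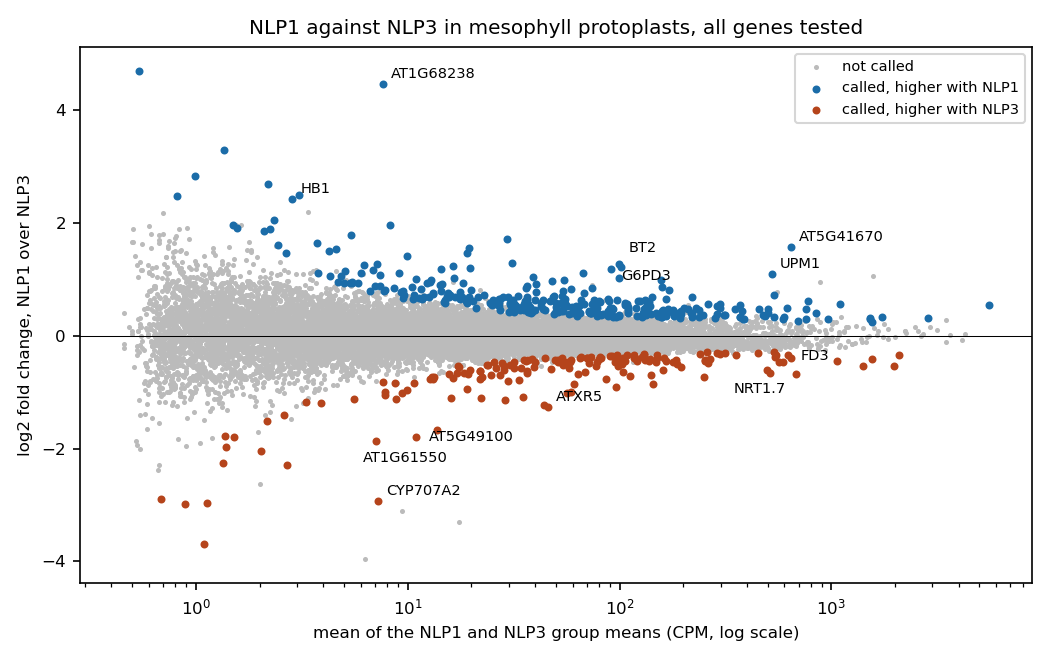
Log2 fold change (NLP1 over NLP3) of each of the 17121 loci tested against its mean level in CPM on a log axis, with called genes in colour. Called genes lie on both sides, 321 above 0 and 169 below, and AT1G68238 and CYP707A2 lie at 4.46 and -2.93.

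Among genes of nitrate reduction and ammonium assimilation, the nitrite reductase transcript was at a high level in both groups and higher with NLP1. All 17 members of the list were tested, 4 were higher with NLP1 (UPM1, GDH1, NIA1 and NIR1), 1 was higher with NLP3 (GLN1;2) and 12 were not called, beside 1.87% and 0.987% of all loci tested; the median difference was 0.12. UPM1, an enzyme on the way to siroheme, the cofactor of nitrite reductase, lay at 730 and 689 CPM with NLP1 and at 334 and 334 CPM with NLP3. Its groups stood far apart relative to the spread within them (log2 fold change 1.09 ± 0.07, SE; adjusted p = 1.55e-05). It overlaps AT5G40855 on the opposite strand, and reads of the 2 cannot be told apart, since no source used here says whether counting used the strand.

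NIR1, nitrite reductase, lay at 3136 and 3199 CPM with NLP1 and at 2595 and 2525 CPM with NLP3, a small difference between groups that did not overlap (0.31 ± 0.05, adjusted p = 0.00637). NIA1, 1 of the 2 nitrate reductase genes, lay at 570 and 578 CPM against 438 and 429 CPM (0.41 ± 0.06, adjusted p = 0.00576). The other, NIA2, lay at 3152 and 3406 CPM against 2841 and 3267 CPM, and its groups overlapped (0.10 ± 0.07, adjusted p = 0.479). GDH1, a glutamate dehydrogenase, which releases or takes up ammonium, lay at 94.3 and 90.0 CPM against 62.9 and 59.4 CPM (0.59 ± 0.08, adjusted p = 0.00296), and it overlaps a gene on the opposite strand.

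GLN1;2, a cytosolic glutamine synthetase, went the other way: 160 and 159 CPM with NLP1 and 238 and 226 CPM with NLP3, 2 tight pairs (-0.55 ± 0.07, adjusted p = 0.00197). The plastid glutamine synthetase GLN2 (279 and 270 CPM against 233 and 230 CPM; 0.24 ± 0.07, adjusted p = 0.091) and the asparagine synthetase ASN2 (40.3 and 36.9 CPM against 29.0 and 30.0 CPM; 0.38 ± 0.10, adjusted p = 0.0712) did not overlap but were not called. The other cytosolic glutamine synthetases, the glutamate synthases GLU1, GLU2 and GLT1, ASN1 and GDH2 were not called either, with differences from -0.30 to 0.20.

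The genes that supply reductant showed the highest share of calls among the pathway lists with 10 or more members tested. Of 11 members, all tested, 6 were higher with NLP1 and 1 (FD3) was higher with NLP3, beside 1.87% and 0.987% of all loci tested, and the median difference was 0.47. AT5G41670, annotated as a 6-phosphogluconate dehydrogenase family protein (the enzyme of the third step of the oxidative pentose phosphate pathway), lay at 953 and 971 CPM with NLP1 and at 335 and 314 CPM with NLP3. Within a group the libraries were close, and the difference had the lowest adjusted p of the genes named here (1.57 ± 0.07, adjusted p = 4.32e-07). Of its relatives, AT1G64190 lay at 58.4 and 63.3 CPM against 39.2 and 36.0 CPM (0.70 ± 0.10, adjusted p = 0.00248), while AT3G02360 was not called (557 and 560 CPM against 453 and 491 CPM; 0.24 ± 0.07, adjusted p = 0.0861).

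Glucose-6-phosphate dehydrogenase catalyses the first step of that pathway. G6PD3, a plastid form, lay at 133 and 121 CPM with NLP1 and at 59.8 and 51.5 CPM with NLP3 (1.18 ± 0.09, adjusted p = 8.29e-05), and G6PD2, also plastid, at 208 and 200 CPM against 133 and 125 CPM (0.66 ± 0.08, adjusted p = 0.000809). G6PD3 and G6PD2 were both higher with NLP1 with no overlap. G6PD1, G6PD5 and G6PD6 were not called, with differences of -0.17, -0.14 and 0.08.

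The root-type ferredoxin-NADP reductases pass electrons from NADPH to ferredoxin. RFNR2 lay at 151 and 132 CPM with NLP1 and at 61.5 and 59.5 CPM with NLP3 (1.22 ± 0.09, adjusted p = 4.02e-05), and RFNR1 at 921 and 839 CPM against 662 and 612 CPM (0.47 ± 0.07, adjusted p = 0.00441). Their electron carrier FD3, a ferredoxin of tissues that are not photosynthetic, was lower with NLP1, at 580 and 532 CPM against 724 and 735 CPM (-0.39 ± 0.07, adjusted p = 0.00875). The reductases and their ferredoxin thus differed in opposite directions, each without overlap between the groups. G6PD3 and AT1G64190 each overlap a gene on the opposite strand.

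**Figure D3:**
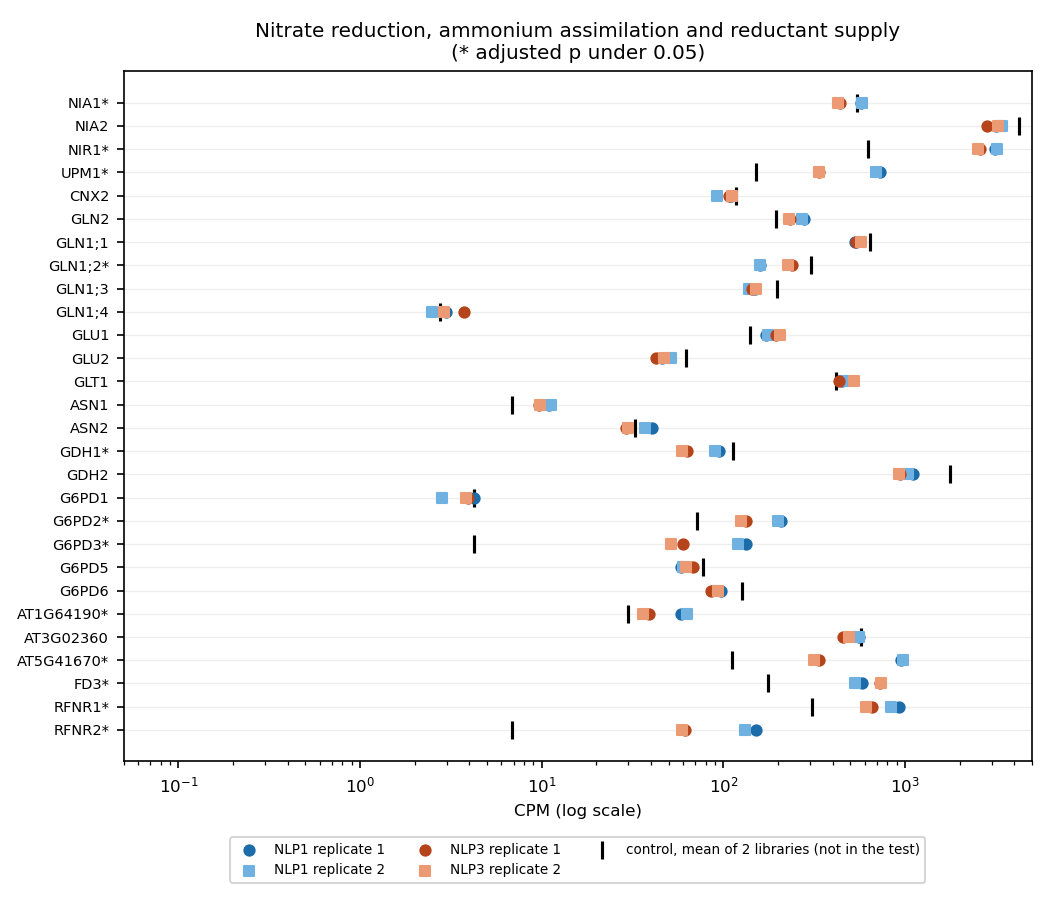
Levels in CPM (log axis) of the 28 genes tested for nitrate reduction, ammonium assimilation and reductant supply, 1 point per library, with the mean of the 2 control libraries as a bar for orientation. The widest gaps between blue (NLP1) and orange (NLP3) points are those of AT5G41670, RFNR2, G6PD3 and UPM1, and among the called genes FD3 and GLN1;2 have the orange points on the right.

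Among regulators of the nitrate response, 27 of 32 list members were tested, 5 were higher with NLP1 (BT2, BT1, LBD39, CIPK3 and AT1G25550; 1.87% of all loci tested were), and the median was 0.21. None was higher with NLP3, which 0.987% of all loci tested were, so that 0 of 27 says nothing of a direction. BT2, a BTB and TAZ domain protein that responds to nitrate and sugar, lay at 156 and 125 CPM with NLP1 and at 47.3 and 68.5 CPM with NLP3 (1.27 ± 0.15, adjusted p = 0.000901). Its relative BT1 lay at 106 and 78.0 CPM against 36.9 and 47.6 CPM (1.12 ± 0.15, adjusted p = 0.00196). Both were apart between the groups although the libraries within a group differed more than those of the enzymes, and BT3, BT4 and BT5 were not called (-0.38, 0.11 and 0.34).

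LBD39, 1 of 3 related repressors of nitrate-responsive genes, lay at 19.9 and 18.4 CPM with NLP1 and at 11.4 and 8.66 CPM with NLP3 (0.92 ± 0.16, adjusted p = 0.00807). Its relatives LBD37 and LBD38 were not called (0.23 and 0.01). CIPK3, a protein kinase regulated by calcium sensors, lay at 164 and 144 CPM against 108 and 110 CPM (0.49 ± 0.08, adjusted p = 0.00841). AT1G25550, annotated as a myb-like transcription factor, lay at 180 and 158 CPM against 127 and 127 CPM (0.41 ± 0.08, adjusted p = 0.0208), and without NLP1 replicate 1 its adjusted p was 0.0594. Among those not called were the kinases CPK10, CPK30 and CPK32 (0.06, 0.38 and 0.33) and the bZIP factors TGA1 and TGA4 (0.00 and 0.23).

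Of 19 nitrate transporters, 13 were tested, 1 was higher with NLP1 and 1 was higher with NLP3, beside 1.87% and 0.987% of all loci tested. Their differences ran from -0.99 to 0.81, with a median of 0.09. CLCA, which moves nitrate into the vacuole, lay at 22.3 and 23.5 CPM with NLP1 and at 13.9 and 15.5 CPM with NLP3 (0.64 ± 0.13, adjusted p = 0.0195), but without NLP3 replicate 1 its adjusted p was 0.0792, and it overlaps a gene on the opposite strand. NRT1.7, which loads nitrate into the phloem of old leaves, lay at 372 and 418 CPM with NLP1 and at 574 and 625 CPM with NLP3 (-0.60 ± 0.08, adjusted p = 0.00161). The transceptor NRT1.1 (346 and 394 CPM against 353 and 341 CPM; 0.09 ± 0.08, adjusted p = 0.599) and NRT3.1, the partner of the NRT2 transporters (333 and 331 CPM against 297 and 313 CPM; 0.12 ± 0.07, adjusted p = 0.399), were not called.

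On the NLP3 side, the gene with the lowest fold change by the naming rule was CYP707A2 (chromosome 2, 12494826 to 12499723, - strand), a cytochrome P450 that breaks down abscisic acid. It lay at 1.61 and 1.71 CPM with NLP1 and at 12.6 and 13 CPM with NLP3 (-2.93 ± 0.21, adjusted p = 3.56e-05). The 4 other genes of abscisic acid synthesis and breakdown were not called, which makes 1 of 5 higher with NLP3 beside 0.987% of all loci tested. CYP707A1 and CYP707A4, enzymes of the same step, lay on opposite sides (2.46 and 3.18 CPM against 4.26 and 4.51 CPM, -0.61 ± 0.26; 8.24 and 11.7 CPM against 6.73 and 6.36 CPM, 0.63 ± 0.20), and CYP707A3 and the synthesis gene NCED3 differed by -0.06 and -0.04.

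The other 11 genes of the rule on that side had differences from -1.87 to -1.10. AT1G61550, an S-locus lectin protein kinase family gene, lay at 3.14 and 2.93 CPM with NLP1 and at 10.7 and 11.5 CPM with NLP3 (-1.87 ± 0.19, adjusted p = 0.000362). AT5G49100, annotated as a vitellogenin-like protein, lay at 5.78 and 4.20 CPM against 20.2 and 13.7 CPM (-1.80 ± 0.22, adjusted p = 0.00126). LCR67, a small cysteine-rich protein, lay at 7.98 and 5.47 CPM against 23.5 and 18.1 CPM (-1.67 ± 0.20, adjusted p = 0.000901).

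ATXR5, a histone methyltransferase of heterochromatin, had the tightest NLP3 pair of this set: 64.7 and 64.5 CPM with NLP3 and 28.2 and 26.1 CPM with NLP1 (-1.26 ± 0.09, adjusted p = 5.23e-05). HXK2, a hexokinase, lay at 9.51 and 10.9 CPM with NLP1 and at 22.9 and 21.1 CPM with NLP3 (-1.10 ± 0.14, adjusted p = 0.00146). DFL1, a GH3 enzyme that joins auxin to amino acids, lay at 11.7 and 16.2 CPM against 22.4 and 38.9 CPM (-1.10 ± 0.22, adjusted p = 0.0225), a difference that was -0.66 without NLP3 replicate 2 and that DESeq2 did not call (adjusted p = 0.192). The remaining genes were LOL1, a zinc finger protein linked to cell death, NPY5 of the NPH3 family, AT3G47480 of the EF-hand calcium-binding family, AT4G12735, which has no annotated function, and AT2G45720 of the ARM repeat family, whose adjusted p of 0.0349 became 0.282 without NLP3 replicate 1 and 0.106 with DESeq2. AT1G61550 and AT2G45720 overlap genes on the opposite strand.

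**Figure D4:**
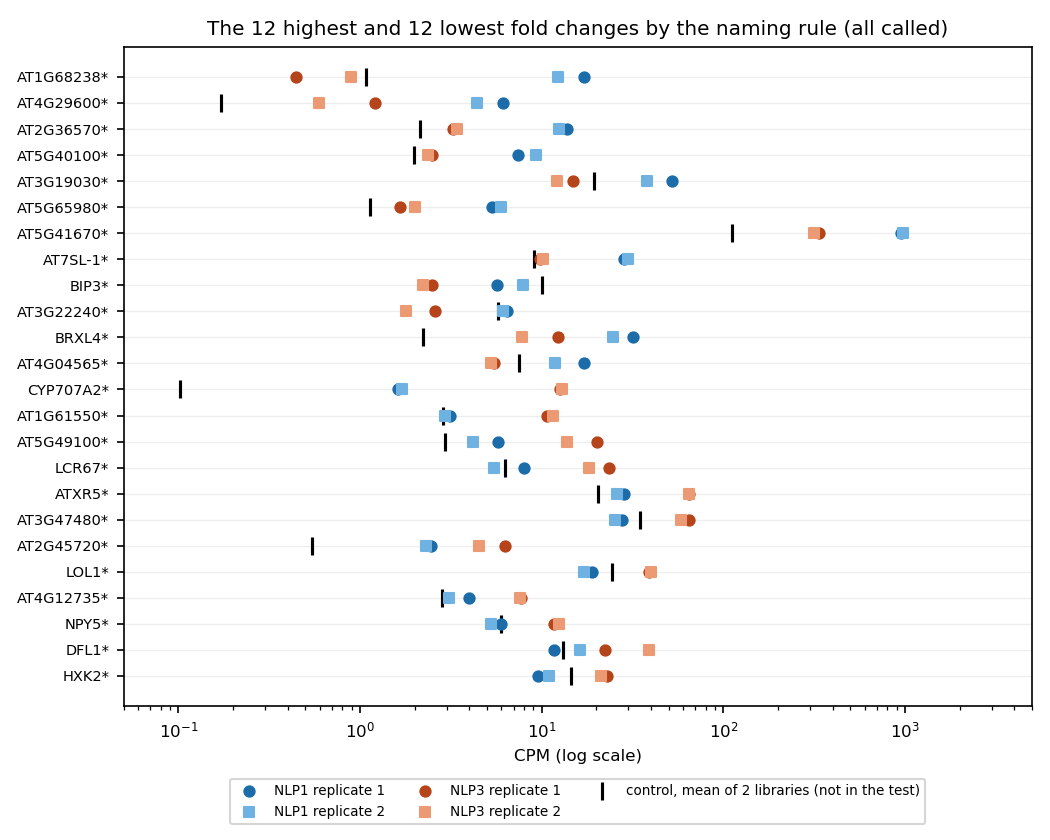
Levels in CPM (log axis) of the 12 genes with the highest and the 12 with the lowest fold change by the naming rule, 1 point per library, with the mean of the 2 control libraries as a bar for orientation. The rule took only genes whose blue (NLP1) and orange (NLP3) points do not overlap; AT1G68238 at the top and CYP707A2 below it have the widest gaps.

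On the NLP1 side, AT1G68238 (chromosome 1, 25574381 to 25574835, + strand), which codes for a protein of no annotated function, came first. It lay at 17.0 and 12.3 CPM with NLP1 and at 0.445 and 0.888 CPM with NLP3, near the 0.19 and 0.222 CPM that 3 counts give (4.46 ± 0.31, adjusted p = 3.5e-05). AT2G36570, a leucine-rich repeat protein kinase family gene, lay at 13.8 and 12.4 CPM against 3.24 and 3.40 CPM (1.97 ± 0.18, adjusted p = 0.000218). AT5G65980, an auxin efflux carrier family gene, lay at 5.35 and 5.96 CPM against 1.65 and 2.00 CPM (1.64 ± 0.26, adjusted p = 0.00578). All 3 were higher with NLP1 at low absolute levels.

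BRXL4, a relative of the root growth regulator BREVIS RADIX, lay at 31.9 and 24.7 CPM with NLP1 and at 12.3 and 7.77 CPM with NLP3 (1.47 ± 0.19, adjusted p = 0.00197). AT3G19030, which RefSeq names a TFIID subunit-like protein, lay at 52.2 and 38.1 CPM against 14.9 and 12.1 CPM (1.72 ± 0.16, adjusted p = 0.000214). AT7SL-1 bears the name of the RNA of the signal recognition particle, which guides new proteins to the endoplasmic reticulum. RefSeq types this locus as protein-coding, and what its reads stand for was not tested. AT7SL-1 lay at 28.5 and 29.7 CPM against 9.78 and 10.2 CPM (1.55 ± 0.13, adjusted p = 8.29e-05). Related copies may share its reads, and in the fit over the correctly labelled groups its adjusted p was 0.06. The other genes of this side, with differences from 1.41 to 2.49, were the deaminase family gene AT4G29600, the TIR-NBS-LRR gene AT5G40100, the PCC1-like gene AT3G22240, BIP3 and the RNA gene AT4G04565, whose adjusted p was 0.161 in the same fit. AT4G29600 had no call in at least 1 alternative besides the fit over 24 libraries. AT5G40100 and AT4G04565 overlap genes on the opposite strand.

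Chaperones of the endoplasmic reticulum were among the genes higher with NLP1. In the list of heat shock and unfolded protein genes all 14 were tested, 4 were higher with NLP1 and none was higher with NLP3, beside 1.87% and 0.987% of all loci tested, with a median of 0.23 and 13 positive differences. BIP2, an Hsp70 of the endoplasmic reticulum, lay at 567 and 608 CPM with NLP1 and at 410 and 432 CPM with NLP3 (0.48 ± 0.07, adjusted p = 0.00335), and BIP3, its inducible relative, at 5.69 and 7.86 CPM against 2.48 and 2.22 CPM (1.54 ± 0.25, adjusted p = 0.00689). BIP1 (0.34 ± 0.07, adjusted p = 0.0195) and the cytosolic HSP70 (0.25 ± 0.06, adjusted p = 0.0409) were weaker calls: BIP1 had an adjusted p of 0.0563 without NLP3 replicate 2, and HSP70 of 0.0712 to 0.0943 without NLP1 replicate 2, NLP3 replicate 1 or NLP3 replicate 2. BIP1 and BIP2 are near-identical copies, so reads may be split between them.

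Of 7 hypoxia genes tested of 9, 2 were higher with NLP1 (1.87% of all loci tested were) and none was higher with NLP3 (0.987% of all). HB1, a haemoglobin that removes nitric oxide, lay at 5.10 and 4.49 CPM with NLP1 and at 0.953 and 0.814 CPM with NLP3 (2.42 ± 0.32, adjusted p = 0.00197). At least 1 alternative besides the fit over 24 libraries gave HB1 no call. LBD41, a hypoxia marker, lay at 77.3 and 50.5 CPM against 23.8 and 40.7 CPM (0.98 ± 0.22, adjusted p = 0.0362), but its difference was 0.66 without NLP1 replicate 1 and 0.64 without NLP3 replicate 1, and DESeq2 gave an adjusted p of 0.384. The fermentation genes ADH1 and PDC1 both differed by 0.08 and were not called.

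In the list of DNA damage and cell cycle genes, 11 of 12 were tested, 2 were higher with NLP1 (1.87% of all loci tested were) and none was higher with NLP3 (0.987% of all), with a median difference of 0.24. TSO2, a subunit of ribonucleotide reductase, lay at 283 and 268 CPM with NLP1 and at 207 and 193 CPM with NLP3 (0.46 ± 0.07, adjusted p = 0.00598), and it overlaps AT3G27050 on the same strand. CYCB1;1, a mitotic cyclin, was not called (17.9 and 15.1 CPM against 11.4 and 10.5 CPM; 0.58 ± 0.15, adjusted p = 0.0647).

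In 5 further lists 1 or 2 members were called, beside 1.87% of all loci tested higher with NLP1 and 0.987% higher with NLP3. CKX4, which degrades cytokinin, was higher with NLP1 (65.7 and 67.8 CPM against 44.8 and 36.7 CPM; 0.71 ± 0.11, adjusted p = 0.00382), 1 call among 10 cytokinin genes tested of 18. LOX2, a lipoxygenase of jasmonate synthesis, was lower with NLP1 (140 and 139 CPM against 186 and 181 CPM; -0.39 ± 0.07, adjusted p = 0.0135), 1 call among 8 jasmonate genes, and SAG101, a partner of the defence regulator EDS1, was higher (79.2 and 68.4 CPM against 51.6 and 49.9 CPM; 0.53 ± 0.10, adjusted p = 0.0112), 1 call among 12 of 15 salicylic acid and camalexin genes tested. Of 13 touch and rapid stress genes tested of 15, the touch gene TCH4 (0.64 ± 0.14, adjusted p = 0.0359) and the calmodulin-like CML38 (0.47 ± 0.10, adjusted p = 0.0268) were higher with NLP1, and they lost the call without NLP3 replicate 2 (adjusted p = 0.0905) and without NLP1 replicate 1 (adjusted p = 0.0826).

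Of 10 sulfate genes tested of 11, GGCT2;1, which recycles glutathione, was called (0.39 ± 0.09, adjusted p = 0.0447) and lost the call in 6 alternatives besides the fit over 24 libraries, with an adjusted p of up to 0.361. None was called among 8 phosphate starvation genes tested of 12 (median -0.21), 10 clock genes of 11 (0.21), 4 iron deficiency genes of 13 (0.02) and 1 CC-type glutaredoxin of 9 (0.31). Over the 17 pathway lists, 181 of 231 members were tested, 29 were higher with NLP1 and 5 were higher with NLP3, beside 1.87% and 0.987% of all loci tested.

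**Figure D5:**
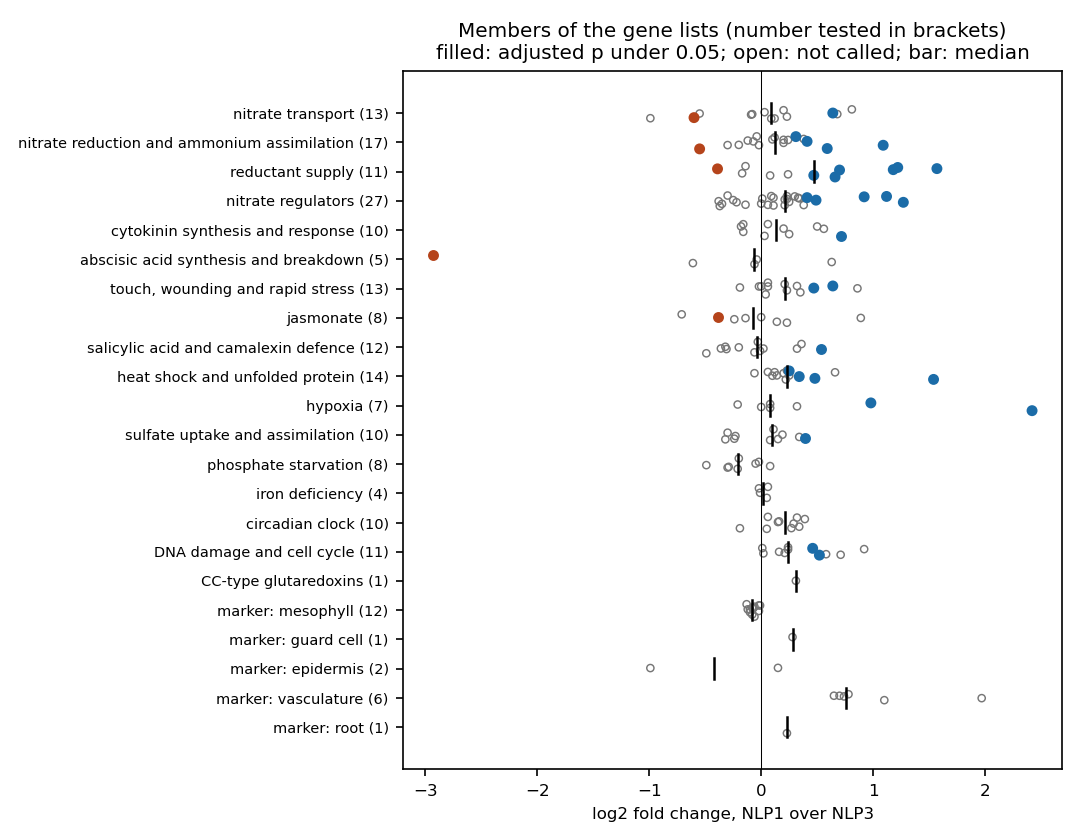
Log2 fold changes (NLP1 over NLP3) of the members tested of each gene list, with called genes filled, others open and the median as a bar. The reductant list has 6 filled points right of 0 and 1 left of it, the nitrate regulators 5 and 0, and the mesophyll markers lie between -0.13 and -0.01.

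The control protoplasts of these NLPs took no part in the test, and their level is given for orientation. Outside the 9 NLP loci, their 2 libraries differed by no more than counting noise (chi-square per gene 1.01 over 15872 genes, against 9.12 and 3.88 in the NLP1 and NLP3 pairs) and count as 1 sample. On the NLP loci they differed more: NLP3 stood at 34.6 and 0.2 CPM, NLP9 at 5.65 and 37.13 CPM and NLP5 at 15.53 and 56.14 CPM. The control mean lay below both groups for 93 of the 321 genes higher with NLP1, between the groups for 90 and above both for 138. Of the 169 genes higher with NLP3 it lay below both for 92, between for 66 and above both for 11, and over all loci tested it lay below both in 41.7%, between in 19.1% and above both in 39.2%. The 7 called genes of the reductant list had the control mean below both groups, and the 4 that were not called had it above both. G6PD3 stood at 4.60 and 3.85 CPM in the control libraries, RFNR2 at 6.78 and 6.99 CPM, and AT5G41670 at 113 and 110 CPM. UPM1 and NIR1 of the nitrate reduction list stood at 152 and 152 CPM and at 624 and 634 CPM, also under both groups. Of the other called members of that list, NIA1 had the control mean between the groups, and GDH1 and GLN1;2 had it above both. CYP707A2 had 0 and 0.203 CPM there. Other genes higher with NLP1 had their highest level in the control, among them BT2 (201 and 193 CPM), GDH1 (116 and 110 CPM), CLCA (48.5 and 54.5 CPM), LBD41 (151 and 146 CPM) and BIP2 (711 and 725 CPM). Of the other called nitrate regulators, CIPK3 and AT1G25550 also had the control mean above both groups, and BT1 and LBD39 had it between them. No called regulator had it below both. Of the other called chaperones, BIP1 and BIP3 had it above both and HSP70 below both.

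The share of called genes that hold the NRE core was not above that of all genes tested, in the window from 250 bases before to 50 bases after the gene start. The core, searched on both strands, was in 8.41% of the 321 windows of genes higher with NLP1, in 6.51% of the 169 windows of genes higher with NLP3 and in 9.25% of 17021 windows of genes tested. Of 25 windows read for called members of the nitrate, reductant and abscisic acid lists and for the 3 highest and 3 lowest genes of the rule, that of UPM1 alone held it. The longer form GACNCTTNNNNNNNNNNAAG, which contains the core, was in 0 of 321, 0 of 169 and 0.14% of all windows. ACGTGNC, a loose form of the abscisic acid element with any base at N, was in 9.35%, 10.65% and 11.87%. TTGACN, a loose form of the W-box of WRKY factors, was in 55.76%, 62.13% and 51.04%. These shares describe letters in this window and do not show binding.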

How the data were processed

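The authors deposited raw read counts per locus, 1 file per library; the submitters' processing notes name the build TAIR10 and, with no role or order, HTSeq 0.6.1, featureCounts, TopHat2 2.1.1 and FastQC 0.11.5. Each file holds 37336 loci and 5 total lines, which were left out; reads on no gene came to 2.27 to 8.68% of the gene counts. Libraries held 11.9 to 20.6 M (megacounts) on genes. The 9 NLP loci were left out, which leaves 37327.

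Counts of the 4 libraries were tested with the edgeR 4.0.16 quasi-likelihood F test in R 4.3.3 (TMM, filterByExpr by group, Benjamini-Hochberg over all loci tested, adjusted p under 0.05). Values are CPM scaled by TMM, except those of NLP loci, and control levels were brought to the same scale. The SE is the size of the log2 fold change divided by the root of F. With 2 libraries a group, the common coefficient of variation was 0.078, with 2 residual degrees of freedom. The test added 9.87 prior degrees of freedom, so the spread of a gene was drawn largely from that of all loci tested.

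The naming rule took the 12 highest and 12 lowest fold changes among called genes that reached 5 CPM as the mean of either group and did not overlap between groups; gene list members could be named too. The comparison, lists and rule were chosen with earlier results of these data known. Alternatives were DESeq2 1.42.0, other scalings, filters and sets of libraries. Names and gene models came from RefSeq TAIR10.1, which paired 37051 loci, and products are as given there. Code was tested on simulated data. The values of 1 list member are not reported here.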

Additional observations from a re-analysis of the deposited data

How the results depend on the processing

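Every one of the 490 called genes that an alternative could test kept its direction. The alternatives drew the difference from the same libraries, and 0 called genes overlapped between the groups. A change of direction was therefore hardly possible, and the kept direction is no separate support. In place of 490 calls (321 higher with NLP1, 169 higher with NLP3), the fit over all 24 protoplast libraries gave 0 (0 and 0), no filter on low counts gave 1107 (654 and 453), and a 2-fold threshold, added after seeing the data, left 78 (47 and 31). The fit over correctly labelled groups called 260 higher with NLP3. Leaving out a library gave 405 to 1298 calls, 270 to 792 higher with NLP1 and 135 to 506 higher with NLP3; the highest count was without NLP1 replicate 2 and the lowest without NLP3 replicate 2, and without NLP1 replicate 1 the calls were 685 (428 and 257). The cause was not tested, and these fits have a single library in a group, so their counts are no check of replication. DESeq2 gave 493 calls, 393 of them shared, relative log expression scaling 482, NLP loci kept in library sizes 463 and organelle loci left out 610.

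The libraries share only a replicate number: deviations of same-numbered libraries correlated at 0.07 across genes. With the number as a block, 2009 genes were called (1078 and 931), all 490 among them. The block takes up a residual degree of freedom, and the labels do not pair these libraries, so its calls are no further support. The counting depth allows no statement below about 0.147 to 0.254 CPM, and small differences near 0.15 on the log2 scale lie within the spread of the pairs.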

Other observations

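Families were looked at after their values were seen, so their counts are descriptions. Of 36 receptor-like protein genes (RLP, surface receptors without a kinase) tested of 54, 10 were higher with NLP1 (27.8%, beside 1.87% of all loci tested) and 1, RLP23, was higher with NLP3 (0.987% of all loci tested were). The median difference was 0.54 and 32 were positive. RLP22 lay at 75.2 and 69.8 CPM with NLP1 and at 38.9 and 33.7 CPM with NLP3 (log2 fold change 0.99 ± 0.10, adjusted p = 0.000289), and RLP6 at 24.5 and 30.5 CPM against 11.7 and 12.1 CPM (1.21 ± 0.14, adjusted p = 0.000842). RLP24 and RLP1 lost the call without NLP3 replicate 2 (adjusted p = 0.221 and 0.206). RLP23, the receptor of the peptide nlp20 of microbial proteins unrelated to plant NLPs, lay at 12.8 and 16.7 CPM against 24.5 and 23.0 CPM (-0.67 ± 0.14, adjusted p = 0.0268).

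Of 27 genes of cysteine-rich receptor-like kinases (CRK) tested, 5 were higher with NLP1 and 0 were higher with NLP3, beside 1.87% and 0.987% of all loci tested. CRK29 lay at 206 and 233 CPM against 124 and 126 CPM (0.81 ± 0.08, adjusted p = 0.000288). CRK22 and CRK42 were not called every time when each library was left out in turn. Of 44 WRKY genes, 4 were higher with NLP1 beside the same shares, with WRKY29 at 123 and 115 CPM against 78.1 and 74.5 CPM (0.64 ± 0.08, adjusted p = 0.00146), and 1 was higher with NLP3, WRKY75 (-0.47 ± 0.10, adjusted p = 0.0287, and 0.0572 without NLP1 replicate 2). WRKY8, 1 of the 4 higher with NLP1, was not called every time either. PAL1, the entry enzyme of phenylpropanoid synthesis, belongs to none of these families and was picked after its values were seen. It stood at 572 and 568 CPM in the control libraries, above both groups. With NLP1 it lay at 278 and 266 CPM against 167 and 171 CPM with NLP3 (0.69 ± 0.07, adjusted p = 0.000383). The plasma membrane proton pump HA1 went the other way, at 1517 and 1729 CPM against 2375 and 2305 CPM (-0.53 ± 0.07, adjusted p = 0.0014). Of 8 HA genes tested, 2 were higher with NLP3 and 0 were higher with NLP1, beside 0.987% and 1.87% of all loci tested. HA2, at a higher level than HA1, was not called (3178 and 3516 CPM against 3659 and 3547 CPM, -0.11 ± 0.06, adjusted p = 0.375), nor was HA3 (0.52 ± 0.16, adjusted p = 0.123).

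ABF2, ARCK1 and LTI78 were picked one by one after their values were seen and stand for no group; the abscisic acid list had 1 of 5 members called. ABF2, a bZIP factor of abscisic acid signalling, lay at 39.9 and 38.7 CPM with NLP1 and at 77.7 and 79.7 CPM with NLP3 (-1 ± 0.09, adjusted p = 0.00013). ARCK1, a receptor-like kinase also linked to abscisic acid, lay at 104 and 101 CPM against 190 and 181 CPM (-0.85 ± 0.08, adjusted p = 0.000153). LTI78, a cold and drought protein, lay at 68.8 and 65.9 CPM against 100 and 152 CPM (-0.90 ± 0.15, adjusted p = 0.00699), and its difference was -0.57 without NLP3 replicate 2 and its adjusted p 0.0604 with DESeq2.

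Among 9655 pairs of neighbouring loci that were both tested, 24 had both members called, 19 of them in the same direction. Of all loci tested 2.86% were called, and whether 24 pairs exceed what that share gives was not tested. Some of the pairs, such as CRK28 with CRK29 and MKK5 with 4CL5, have overlapping gene models and may share reads. ATXR5, the pseudogene AT5G09795 and AT5G09800 lie next to each other on chromosome 5 and were all higher with NLP3, at -1.26, -2.99 and -1.01; AT5G09795 had 4 and 2 counts with NLP1 and 28 and 18 with NLP3, and lost the call without NLP1 replicate 2 (adjusted p = 0.0624) and without NLP3 replicate 1 (adjusted p = 0.165). AT5G09800 lay at 35.4 and 39.2 CPM against 77.4 and 73.6 CPM. NRT1.7 and its neighbour TH8, a thioredoxin, were both higher with NLP3 (-0.60 and -0.86).

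In some loci that were not called, 1 library lay far from the other 3. RWP1, an acyltransferase of suberin synthesis, lay at 1.08 CPM in NLP3 replicate 1 and at 22.6 CPM in NLP3 replicate 2, beside 0.68 and 0.782 CPM with NLP1. AT5G24080 lay at 3.05 and 60.6 CPM with NLP3, beside 2.46 and 3.61 CPM with NLP1. The ribosomal RNA locus AT3G41768 lay at 3116 CPM in NLP1 replicate 1 and at 997 to 1118 CPM in the other 3 libraries. These loci were chosen after their values were seen.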
